A study of Drosophila melanogaster with 6 samples.

Results

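The transcriptome described here is that of the indirect flight muscles (IFMs) of Drosophila melanogaster at 72 hours after puparium formation (APF), in the control genotype of the study, Act88F-Gal4 driving UAS-GFPnls (UAS-GFP). It was taken from the 3 UAS-GFP libraries of 6 in the series, chosen by their labels, and the UAS-Antp libraries were not used. Each library was made from polyA RNA of hand-dissected muscles pooled from several pupae. The controls are not untreated wild type, since they carry a Gal4 driven by the promoter of Act88F, the most abundant gene described below, and a nuclear GFP. The labels describe the 3 samples as independent replicates whereas the methods of the study describe technical ones, so the errors given here are the spread between these samples and may be technical.

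Flight muscle of the fly is fibrillar: its contraction is triggered by stretch as well as by calcium, and it works at a wingbeat rate that needs a continuous supply of adenosine triphosphate (ATP). It is known for protein isoforms of its own in the thin and thick filaments and for its dense packing with mitochondria. In the second part of pupal life the sarcomeres grow in length and width and the mitochondria mature. Many proteins of the sarcomere and of metabolism have related genes (paralogs) that serve other muscles, other tissues or the germ line.

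The deposited values are counts of reads on the exons of 17611 genes, and their totals were 64485309, 47460809 and 59754817 in replicates 1, 2 and 3. To compare genes of different length, each count was divided by the summed exon length of its gene and scaled to a total of 1000000 per library, which gives transcripts per 1000000 (TPM). A gene was taken as not detected at or under 3 counts in each library, which held for 7266 genes, while 8651 genes had more than 3 counts in all 3 libraries and 6689 had at least 1 TPM in all 3. The floor is meant for counting error alone, because amplified copies of a fragment were not told apart. Both mates of a pair appear to have been counted, so 3 counts can stand for fewer than 3 fragments and the floor is a low one. Protein-coding genes held 97.5% to 97.7% of the TPM. All 37 genes of the mitochondrial genome are listed at 0, so the respiratory genes described here are those of the nucleus.

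The RNA pool was concentrated in few genes. In replicates 1, 2 and 3, 59, 65 and 53 genes held 50% of the TPM (59 ± 6.0, SD, n = 3), and 10, 11 and 10 genes held the first 25%. The mean number holding 50% was 45.7 without division by length and 48 without genes that share exon bases. The share of the 50 most abundant genes of each library was 47.7%, 46.5% and 49.2%, or 47.8% ± 1.36 (SD, n = 3). The share of the single most abundant gene, Act88F, was 6.04%, 5.96% and 5.96%.

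**Figure D1:**
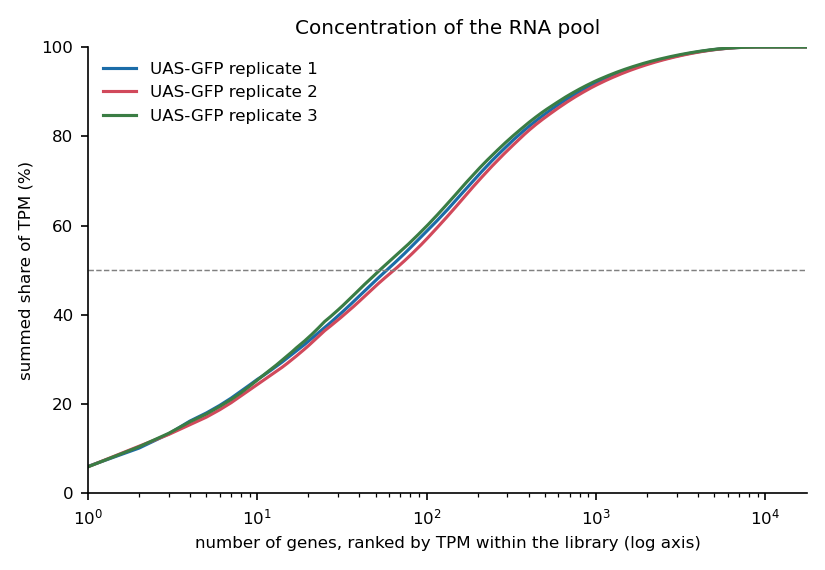
Summed share of TPM (vertical axis, percent) against the number of genes ranked by TPM within each library (horizontal axis, log scale), 1 line per UAS-GFP library; the dashed line marks 50%. The lines cross it at 59, 65 and 53 genes and lie close together over the whole range.

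The 4 genes used as markers of fibrillar muscle were all among the 30 most abundant genes. Act88F (FBgn0000047; dm6 chromosome 3R, 15439969 to 15442177, plus strand), the actin of the flight muscle thin filament, was at 60398, 59579 and 59581 TPM. Mlc2 (FBgn0002773; chromosome 3R, 30171438 to 30174551, minus strand), the myosin regulatory light chain of muscle, was at 40985, 45966 and 44708 TPM. The thick filament protein flightin, encoded by fln (FBgn0005633; chromosome 3L, 19989551 to 19991220, minus strand), was at 31973, 26546 and 30339 TPM.

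TpnC4 (FBgn0033027; chromosome 2R, 5503437 to 5507866, minus strand), the troponin C isoform of flight muscle, was lower, at 6367, 6242 and 7447 TPM, and stood at rank 24. The 4 markers together held 14.0% of the pool. Mlc2 is a gene of muscle in general and does not by itself mark fibrillar muscle. The other 3, which are known for flight muscle, were abundant in every library. In bulk RNA, a change in the number of cells of a type and a change in RNA per cell cannot be told apart, so each level is a share of the RNA collected.

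Of the 30 most abundant genes, 12 belonged to the nuclear-encoded respiratory chain, 5 to the thin filament and 4 to the thick filament. The most abundant gene outside the sarcomere was the ATP synthase ring subunit ATPsynC, at 28661, 21843 and 25798 TPM and rank 4. Citrate synthase, encoded by kdn, stood at rank 10 with 13894, 12138 and 12647 TPM. The ADP/ATP translocase sesB, which exchanges the nucleotides across the inner mitochondrial membrane, stood at rank 9 with 12603, 13607 and 15036 TPM.

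Of the genes in no class, 3 were among the 30. GstS1, a glutathione S-transferase that is abundant in fly flight muscle, was at 16105, 15704 and 17033 TPM and stood at rank 6. Osi15 is described below with its family. The snoRNA:Me28S-C993, a small nucleolar RNA of 93 bases that lies in an exon of ect, was listed at 8058, 10117 and 11166 TPM. The counts of such a short RNA cannot be told apart from reads of its host gene, and dividing them by 93 bases makes its level unreliable.

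**Figure D2:**
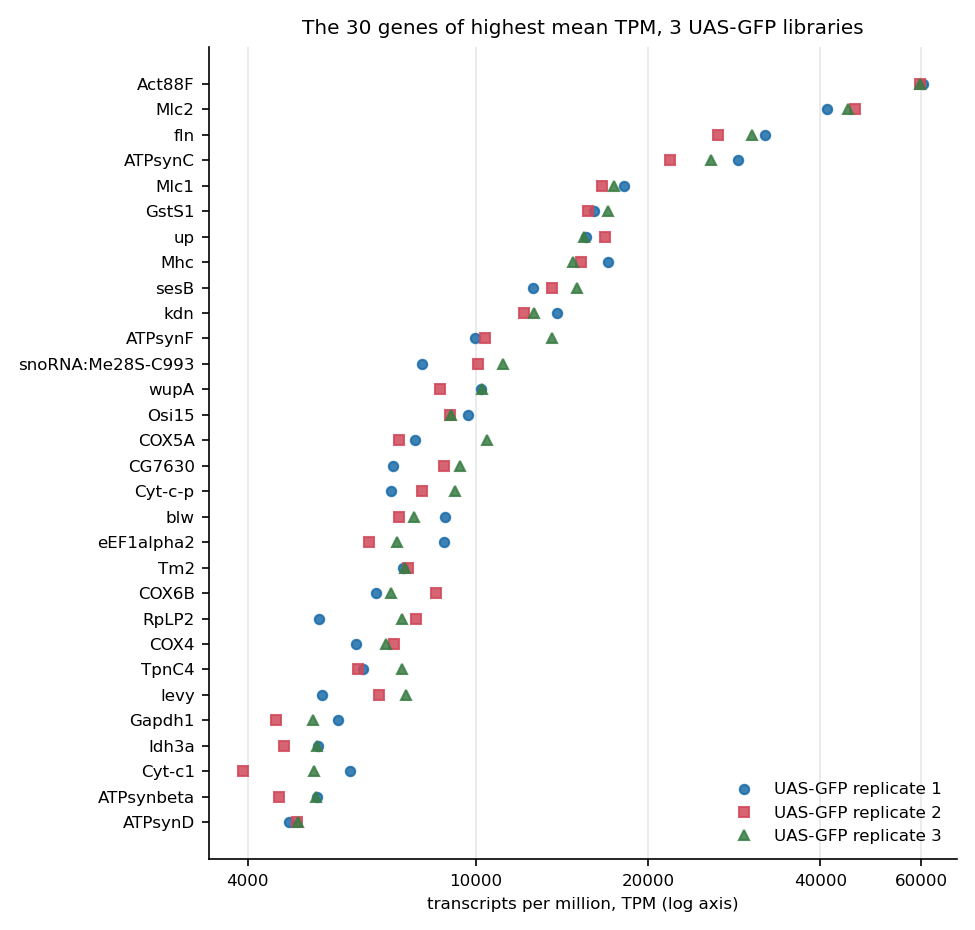
TPM (horizontal axis, log scale) of the 30 genes with the highest mean TPM, ordered from the highest at the top, with 1 point per UAS-GFP library. The mean of Act88F is 59853 TPM and that of ATPsynD, the last gene shown, 4837 TPM, and for most genes the points of the libraries lie close to each other.

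By function, the muscle devoted most of its measured RNA to the sarcomere, to mitochondria and to protein synthesis. The thin filament, thick filament and Z-disc classes (58 genes) held 22.4%, 21.8% and 22.1% of the TPM (22.1% ± 0.278, SD, n = 3). The mitochondrial classes, made of the nuclear respiratory chain, the citric acid (TCA) cycle, carriers and the mitochondrial ribosome (216 genes), held 29.2%, 28.6% and 30.5% (29.4% ± 0.964). The cytosolic ribosome and translation factors (145 genes) held 12.8%, 13.6% and 13.2% (13.2% ± 0.395). With glycolysis, these 446 genes held 67.2% ± 0.911 of the pool, and genes in no class held 30.04% ± 0.780. Without division by length, the thick filament held 16.8%, the nuclear respiratory chain 10.999% and the cytosolic ribosome 5.04%, so the order of these classes depends on it.

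**Figure D3:**
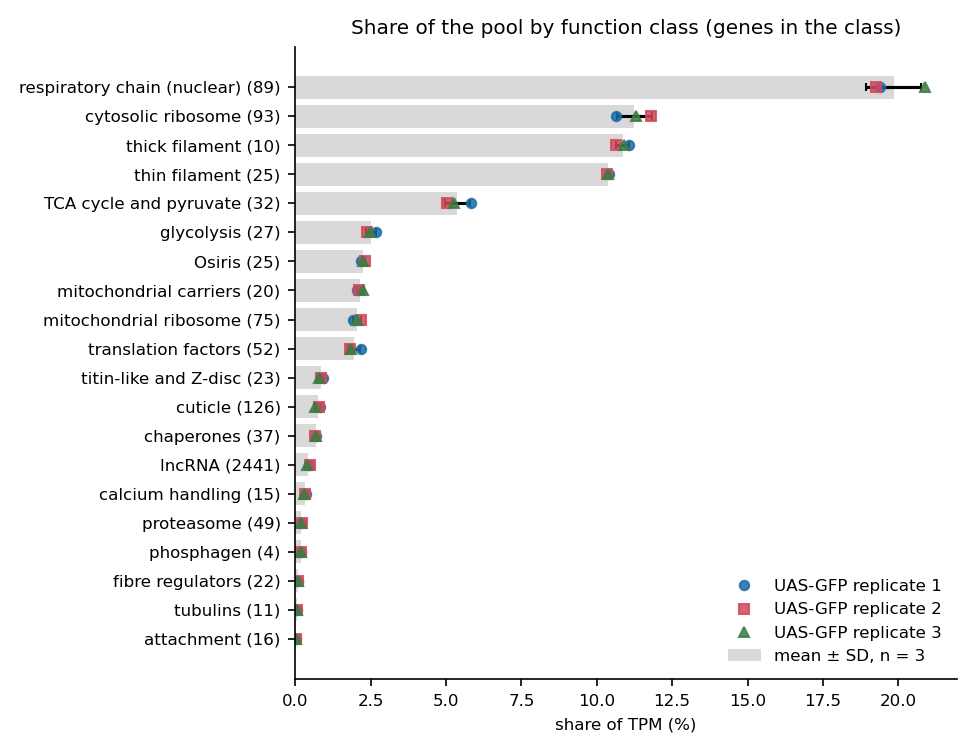
Share of TPM (horizontal axis, percent) for each function class, with the number of genes of the class in parentheses; bars are means and error bars the SD over 3 UAS-GFP libraries, and points are the single libraries. The nuclear respiratory chain has the longest bar at 19.9%, followed by the cytosolic ribosome, the thick filament and the thin filament, each between 10.4% and 11.2%.

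The thin filament class (25 genes) was almost constant, at 10.4%, 10.3% and 10.4% of the pool (SD 0.0366), and its 5 most abundant genes held 96.2% of it. With no division by length its mean share was 10.4% and the SD was larger, at 0.300. Behind Act88F came troponin T, encoded by up, with 15613, 16833 and 15489 TPM. Troponin I, encoded by wupA, was at 10218, 8652 and 10254 TPM. The tropomyosin Tm2 was at 7460, 7613 and 7525 TPM, with a coefficient of variation (CV, the SD over the mean) of 1.02%. The RNA of up was thus above that of wupA in every library, with ratios of 1.53, 1.95 and 1.51.

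The thick filament class (10 genes) held 11.1%, 10.6% and 10.9% of the pool. The muscle myosin heavy chain, encoded by Mhc, was at 17042, 15260 and 14768 TPM. The alkali light chain of muscle, Mlc1, was at 18129, 16608 and 17443 TPM, and its ratio to Mhc was 1.06, 1.09 and 1.18. The regulatory light chain Mlc2 was above Mhc by 2.40, 3.01 and 3.03 times. Act88F was above Mhc by 3.54, 3.90 and 4.03 times, and fln by 1.88, 1.74 and 2.05 times. These ratios rest on the exon length of Mhc, 9058 bases, and alternatives for them were added after the data had been seen. With the longest transcript, the mean log2 ratio of Mlc1 over Mhc went from 0.15 to -0.15, so these 2 were not ordered, while Act88F, Mlc2 and fln stayed above Mhc at 1.63, 1.18 and 0.69. With no division by length, all 4 were below Mhc.

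Paramyosin, encoded by Prm, forms part of the core of the thick filament, and Mhc was above it by 14.0, 15.5 and 15.3 times. The 23 genes for titin-like and Z-disc proteins held 0.921%, 0.855% and 0.775% of the pool, highest in replicate 1. The muscle LIM protein gene Mlp60A led them, at 1952, 1818 and 1657 TPM. Actinin, the cross-linker of actin in the Z-disc encoded by Actn, was at 1360, 1118 and 1061 TPM. The M-line protein obscurin, encoded by Unc-89, was at 1307, 1197 and 991 TPM.

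In most sarcomeric families, 1 member held nearly all of the RNA. Act88F took 98.8% ± 0.707 (SD, n = 3) of the summed TPM of the 6 actin genes. Act87E was next, at 324, 959 and 269.6 TPM, so that Act88F was above it by 186, 62.1 and 221 times. Replicate 2 was high for Act87E while Act88F was level in all 3 libraries. The cytoplasmic actin Act5C was at 85.1, 120 and 94.1 TPM, Act88F being above it by 710, 498 and 633 times.

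Act79B, an actin of tubular muscle such as the jump muscle, was at 56.4, 80.0 and 51.2 TPM. Act57B, an actin known from larval muscle, was at 33.5, 39.9 and 11.3 TPM, and the cytoplasmic Act42A at 17.4, 22.9 and 12.2 TPM. All 5 of these were highest in replicate 2. Actin coding sequences are much alike and only uniquely mapping reads were counted, so their levels are uncertain.

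Among the 5 troponin C genes, TpnC4 took 99.6% ± 0.0969 of the TPM. TpnC73F was at 20.04, 12.4 and 10.1 TPM and TpnC41C, known from tubular muscle, at 5.58, 10.2 and 7.16 TPM. TpnC4 was above TpnC73F by 318, 504 and 735 times and above TpnC41C by 1140, 609 and 1040 times. TpnC25D was at 1.47, 1.67 and 1.404 TPM, and TpnC47D had 46, 0 and 22 counts.

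The myosins showed the same order. The nonmuscle heavy chain zip was at 30.7, 23.8 and 22.1 TPM, and Mhc was above it by 555, 640 and 669 times. The nonmuscle regulatory light chain sqh was at 57.1, 72.9 and 60.8 TPM, 718, 630 and 735 times below Mlc2. The nonmuscle alkali light chain Mlc-c was at 19.4, 28.2 and 22.6 TPM, and Mlc1 was above it by 934, 590 and 772 times.

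The tropomyosins were closer to each other. Tm1 was at 2239, 1998 and 2107 TPM, and Tm2 was above it by 3.33, 3.81 and 3.57 times. This order rests on the length used: the exons of Tm1 sum to 9804 bases and those of Tm2 to 2613. The mean log2 ratio of Tm2 over Tm1 was 1.83 ± 0.0970 (SD, n = 3), but 0.55 with the length of the longest transcript and -0.073 with no division by length.

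In the Zasp family no member was dominant. The Z-disc proteins of the Zasp family were at 979, 758 and 663 TPM for Zasp52, 522, 485 and 471 TPM for Zasp67 and 372, 374 and 361 TPM for Zasp66. Zasp52 was highest of the 3 in every library, and its own TPM varied more than that of Zasp66. Of the muscle LIM and calponin-like genes, Mlp60A took 98.0% ± 0.103. Chd64 was at 30.7, 28.3 and 30.8 TPM, Mp20 at 5.35, 8.64 and 1.85 TPM, and Mlp84B, known from tubular and larval muscle, at 0.999, 1.48 and 0.829 TPM.

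**Figure D4:**
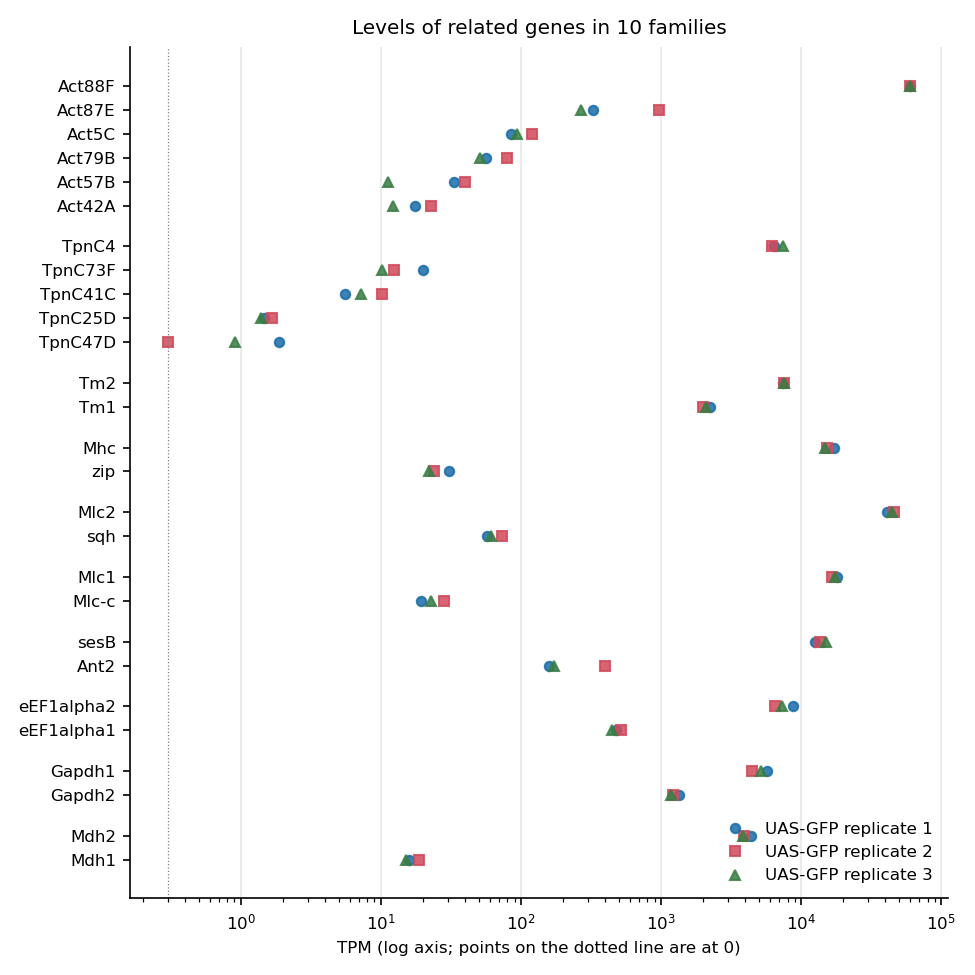
TPM (horizontal axis, log scale) of the members of 10 gene families, grouped by family, with 1 point per UAS-GFP library; points on the dotted line are at 0. The leading member lies 2 or more powers of 10 above the next in actins, troponin C and myosins for most libraries, but tropomyosins and glyceraldehyde-3-phosphate dehydrogenases (Gapdh) lie close together.

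The nuclear respiratory chain was the largest class, with 19.4%, 19.2% and 20.9% of the pool in 89 genes. ATP synthase, which makes ATP from the proton gradient, held 8.04%, 7.36% and 8.25% in 17 genes. Complex I, where electrons enter from NADH, held 4.31%, 4.38% and 4.54% in 40 genes. Complex IV, the cytochrome oxidase, held 3.94%, 4.57% and 4.84% in 18 genes, lowest in replicate 1. These lists were drawn up after the data had been seen.

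Complex III held 2.40%, 2.14% and 2.35% of the pool in 12 genes and complex II, counted with the TCA cycle, 0.612%, 0.548% and 0.557% in 4. Subunits of a complex were far from equal in RNA. Within ATP synthase, ATPsynC was above the alpha subunit blw by 3.24, 2.97 and 3.31 times, and blw was above ATPsynbeta by 1.67, 1.62 and 1.48 times. ATPsyngamma, of which the enzyme holds a single copy, was at 3449, 3447 and 3470 TPM, with the smallest CV (0.372%) of the 876 genes at 100 TPM or more.

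The cytochrome oxidase subunits COX5A, CG7630 (currently named COX7B), COX6B, COX4 and levy were between 5393 and 10473 TPM in all libraries. COX5A was at 7841, 7339 and 10473 TPM and COX4 at 6191, 7196 and 6970 TPM. The electron carrier cytochrome c, encoded by Cyt-c-p, was at 7121, 8077 and 9198 TPM, and its paralog Cyt-c-d, known from the male germ line, at 1.47, 1.20 and 2.80 TPM.

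Of the 89 respiratory genes, 16 were at or under 3 counts in every library. These include COX4L, COX6AL, COX7AL, ND-20L, ND-24L, ND-49L, ND-51L1, ND-51L2, ND-B14.5AL, UQCR-14L, ATPsynbetaL, ATPsynGL and ATPsynCF6L, whose names mark them as copies of other subunits. Those subunits were abundant except COX7A, the namesake of COX7AL, which was low, at a mean of 22.4 TPM. COX4L was at 0 counts in all 3 libraries. In each library, COX4 was at least 41908-fold above the level that 3 counts of COX4L would give. The other 3 were CG31644, CG43206 and CG14077. Not all copies named in this way were under the floor: UQCR-11L had 89, 61 and 31 counts, COX5BL 24, 4 and 32, and ATPsynepsilonL 4, 0 and 0.

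The TCA cycle and pyruvate class held 5.82%, 5.04% and 5.27% of the pool in 32 genes. After kdn came isocitrate dehydrogenase (Idh3a, at 5301, 4635 and 5296 TPM), the mitochondrial malate dehydrogenase Mdh2 and the aconitase mAcon1. Mdh2 was at 4406, 3922 and 3821 TPM and its cytosolic relative Mdh1 at 15.9, 18.6 and 15.0 TPM. mAcon1 was at 4451, 3241 and 3272 TPM, and mAcon2, at 0 counts in all libraries, was at least 66333-fold lower. Fumarase Fum1 was above Fum2 by 10.3, 7.80 and 12.0 times.

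Glycolysis held 2.69%, 2.38% and 2.47% of the pool in 27 genes. Gapdh1 led it, at 5747, 4484 and 5214 TPM, and Gapdh2 was at 1337, 1218 and 1187 TPM, a ratio of 4.30, 3.68 and 4.39. Aldolase (Ald1) was at 3556, 3159 and 3348 TPM. The hexokinase Hex-A was at 334.2, 293 and 284 TPM, and Hex-C was at 0 counts. In each library, Hex-A was at least 3491-fold above the level that 3 counts of Hex-C would give. The phosphoglycerate mutase Pglym78 was at 1500, 1608 and 1560 TPM, whereas Pglym87 had 0, 0 and 2 counts.

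The glycerophosphate shuttle, which passes electrons from cytosolic NADH to the respiratory chain, had unequal levels for its enzymes. Its mitochondrial enzyme Gpo1 was at 4795, 4633 and 4624 TPM and its cytosolic enzyme Gpdh1 at 224, 154 and 208 TPM, so that Gpo1 was above Gpdh1 by 21.4, 30.03 and 22.2 times. The paralogs Gpo2 (3, 4 and 16 counts) and Gpo3 (0, 0 and 4 counts) were near the floor. Gpdh2 was at 0 counts, and Gpdh1 was at least 1488-fold above the level that 3 counts of Gpdh2 would give. Gpdh3 was at 1.101, 1.43 and 0.900 TPM.

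Carriers held 2.04%, 2.12% and 2.26% of the pool, and sesB made up 64.3% of this. Its paralog Ant2 was at 158, 396 and 173 TPM, high in replicate 2, so that sesB was above it by 79.9, 34.3 and 86.8 times. The genes share exon bases on one strand, and reads on such bases appear to be counted for each gene, so their levels and ratio are uncertain. Without all genes that share exon bases the class fell to 0.825% of the pool. The outer membrane channel porin was at 4642, 4422 and 4790 TPM, and Porin2 at 1.69, 2.56 and 2.33 TPM. The phosphate carrier Mpcp1 was above Mpcp2 by 16.0, 9.70 and 12.1 times.

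Arginine kinase (Argk), which buffers ATP through phosphoarginine, was at 1296, 1333 and 1285 TPM, and its relative CG5144 at 1.66, 2.08 and 2.83 TPM. Calcium handling genes held 0.353%, 0.313% and 0.304% of the pool. Amphiphysin (Amph), which shapes the transverse tubules, led them at 1373, 1248 and 1329 TPM, ahead of junctophilin (jp) at 830, 656 and 666 TPM. The calcium pump SERCA was at 595, 522 and 447 TPM and the release channel RyR at 338, 320 and 259 TPM. The sarcolambans SclA and SclB, peptides that regulate SERCA, cannot be told apart by counts, since all 1027 exon bases of SclA lie in those of SclB; SclA had 99, 12 and 39 counts.

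The cytosolic ribosome held 10.6%, 11.8% and 11.3% of the pool in 93 genes, of which 82 had a mean of at least 100 TPM. RpLP2 led, at 5335, 7861 and 7431 TPM, followed by RpS27A at 4529, 4309 and 4276 TPM and by RpL27A, RpS30 and RpL23A at means of 4090, 3450 and 3307 TPM. The paralogs at or under 3 counts were RpS28-like, RpS19b, RpL10Aa, RpS10a, RpS28a, RpL37b and RpL22-like. The mitochondrial ribosome held 1.93%, 2.17% and 2.03% in 75 genes, all of them detected, led by mRpL53 at 771, 764 and 778 TPM.

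Elongation factor 1 alpha, which brings the aminoacyl transfer RNA to the ribosome, was mainly from eEF1alpha2, at 8822, 6515 and 7302 TPM. Its paralog eEF1alpha1 was at 479, 519.6 and 446 TPM, so the ratio was 18.4, 12.5 and 16.4. The other leading factors of translation, eEF1gamma, eEF2, eEF1beta and eEF1delta, had means of 2257, 1830, 1279 and 686 TPM.

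The proteasome held 0.195%, 0.207% and 0.196%, led by Prosbeta1, Prosalpha5, Prosbeta6, Rpn10 and Rpt3 at means of 183, 122, 120.05, 105 and 83.7 TPM, and 14 of its 49 genes were at or under 3 counts. These were Prosalpha3T, Prosalpha4T1, Prosalpha4T2, Prosalpha6T, Prosbeta2R1, Prosbeta2R2, Prosbeta4R1, Prosbeta4R2, Prosbeta5R1, Prosbeta5R2, Rpn12R, Rpn13R, Rpt4R and Rpt6R.

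Chaperones held 0.679%, 0.670% and 0.689% of the pool. Hsp83, the fly Hsp90, was at 1853, 1277 and 1503 TPM. The heat-inducible Hsp70Bb was at 783, 1172 and 1598 TPM, while the constitutive Hsc70-5, Hsc70-4 and Hsc70-1 were at means of 773, 743 and 559 TPM and Hsc70-3, of the endoplasmic reticulum, at 21.7 TPM. The ratio of Hsc70-5 to Hsc70-4 was 0.946, 1.096 and 1.095, so their order changed between libraries. The Hsp70B copies are near-identical, and their counts are uncertain.

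Tubulins were low, with 0.0715%, 0.0609% and 0.0590% of the pool. The beta tubulin betaTub60D was at 318, 237 and 243 TPM, betaTub97EF at 162, 154 and 153 TPM and betaTub56D at 120, 114 and 96.5 TPM. The alpha tubulin alphaTub84B was at 93.3, 87.1 and 80.5 TPM and alphaTub84D at 18.8, 14.1 and 14.9 TPM.

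The muscle attachment class holds genes of integrin attachment and also Dg, Dys, Scgalpha, Scgbeta and Scgdelta. Its 16 genes held 0.0399%, 0.0396% and 0.0355% of the pool, and all were detected. They were led by parvin, Pax, mys (the beta integrin), stck and Fit2, at means of 59.9, 59.7, 57.2, 47.8 and 26.9 TPM. Long noncoding RNAs held 0.441%, 0.476% and 0.396%, and 1925 of 2441 were at or under 3 counts. The leading ones were lncRNA:CR42491, lncRNA:CR45197, lncRNA:CR42862, lncRNA:CR31781 and lncRNA:sphinx, at means of 693, 498, 494, 489 and 261 TPM, and lncRNA:sphinx was high in replicate 2, at 190, 433 and 160 TPM.

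The regulators of fibre type held 0.0968%, 0.0967% and 0.0861% of the pool in 22 genes. The splicing regulator bru1, which directs flight muscle splice forms, was at 470, 493 and 448 TPM. The transcription factor salm, which selects the fibrillar fate, was at 95.3, 85.3 and 76.8 TPM and its neighbour salr at 45.4, 44.4 and 35.1 TPM. Mef2, a general activator of muscle genes, was at 90.7, 74.0 and 63.7 TPM. Both salm and Mef2 were highest in replicate 1 and lowest in replicate 3. Long genes as a set were also higher in replicate 1 and lower in replicate 3, as described below, and the part of length here was not tested. The myoblast factors twi and nau were at or under 3 counts in every library. Of the myoblast markers in this class, zfh1 had 1305, 971 and 1099 counts and Him 16, 23 and 24.

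Besides muscle genes, the pool held a family of the cuticle-forming epidermis and trachea. The Osiris genes, of which most lie in a cluster on chromosome 3R, held 2.19%, 2.33% and 2.24% of the TPM in 25 genes, a list drawn up after the data had been seen. Osi15 (chromosome 3R, 6301804 to 6303653) was at 9688, 9022 and 9062 TPM, Osi19 at 3860, 5052 and 4963 TPM and Osi20 at 4147, 3428 and 3821 TPM. With Osi18 and Osi9 these held 99.2% of the family's RNA, and 6 members were at or under 3 counts: Osi4, Osi5, Osi6, Osi10a, Osi10b and Osi23.

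Cuticle genes held 0.809%, 0.786% and 0.640% of the pool, led by Twdlbeta at 3768, 2619 and 2926 TPM, and 65 of 126 were at or under 3 counts. The 5 tracheal markers, trh, btl, verm, serp and Gasp, summed to 553, 514 and 481 TPM, of which Gasp had 212, 164 and 187 TPM. All 5 were above 3 counts in every library, and so were all 5 tendon and epidermis markers. The 5 tendon and epidermis markers summed to 30.7 to 41.1 TPM, mostly from shot. Tsp, sr and grh had means of 3.51, 1.35 and 0.820 TPM, and the epidermal regulator ovo 0.0493 TPM. The part of other cells in the Osiris and cuticle levels was not tested.

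Fat body markers summed to 174, 239 and 306 TPM, lowest in replicate 1 and highest in replicate 3, with Lsp2 at 66.6, 84.2 and 100 TPM. The 5 neuron markers summed to 5.72 to 7.12 TPM, mostly from elav, at a mean of 5.52 TPM. The 3 glia markers summed to 8.59 to 10.8 TPM, mostly from moody, at a mean of 8.14 TPM. The 5 hemocyte markers summed to 35.4 to 36.4 TPM, of which Col4a1 had most. The 5 tubular muscle markers summed to 70.7 to 105.8 TPM, mostly from Act79B, and the 4 myoblast markers to 6.01 to 7.10 TPM, mostly from zfh1.

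Testis markers had a sum of 0.134 to 1.35 TPM, with 5 of 6 at or under 3 counts, and ovary markers 0.0447 to 0.190 TPM. The male-specific RNA roX2 was at 0 counts in every library and roX1 had 7, 0 and 2 counts, while msl-2, of the same male dosage compensation machinery, had 367, 231 and 280 counts. Antimicrobial peptide genes summed to 3.56 to 4.28 TPM, with 7 of 10 at or under 3 counts. The heat stress list summed to 1094, 1576 and 2003 TPM, mostly from Hsp70Bb.

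Hormone-timing genes were at low to moderate levels. The ecdysone cascade factors Hr3, Hr4, Eip74EF and Hr78 had means of 31.0, 34.0, 30.3 and 29.7 TPM, and ftz-f1 was at 47.2, 25.9 and 26.9 TPM. The pupal and adult specifiers br and Eip93F were at means of 0.408 and 0.596 TPM. Of the clock genes, Pdp1 was at 64.2, 65.6 and 64.8 TPM, and per, tim and Clk had means of 2.37, 2.89 and 0.0915 TPM. The Hox gene Antp, which is expressed in flight muscle precursors, had 70, 33 and 66 counts and was added to the genes named after its values were seen.

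The libraries resembled each other most for abundant genes. The median CV was 17.4% for the 3835 genes of 1 to 10 TPM, 11.03% for the 2429 genes of 10 to 100 TPM and 8.50% for the 184 genes at 1000 TPM or more. The biological coefficient of variation that edgeR estimated over 8124 genes was 0.185. Of the 876 genes at 100 TPM or more, 215 had a CV under 5% and 73 had one over 20%.

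The smallest CVs after ATPsyngamma were those of Pdhb (0.599%), Surf1 (0.615%), RpL24 (0.636%) and CG7215 (0.719%). The largest were those of CG13049 (89.9%), Act87E (74.1%), CG13047 (71.2%), CG34461 (59.1%) and the ribosomal RNA pseudogene 18SrRNA-Psi:CR45861 (58.5%). CG13049 was at 300.2, 47.6 and 98.3 TPM and CG13047 at 188, 49.6 and 73.8 TPM, both highest in replicate 1. CG34461 was at 151, 324 and 107 TPM, highest in replicate 2.

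**Figure D5:**
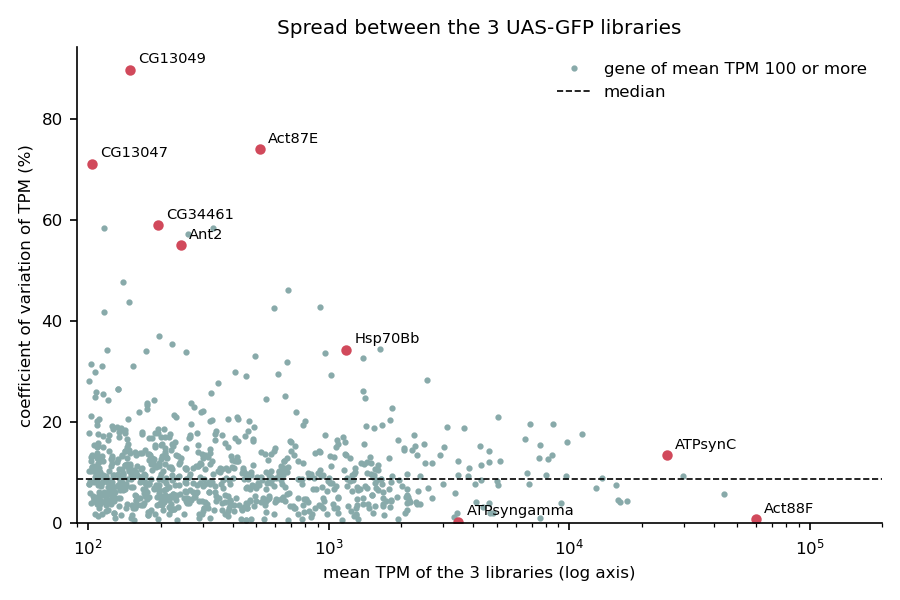
CV of TPM over the 3 UAS-GFP libraries (vertical axis, percent) against mean TPM (horizontal axis, log scale) for the 876 genes at 100 TPM or more; red points are the genes named and the dashed line is the median, 8.83%. CG13049, Act87E and CG13047 lie above 70%, and Act88F and ATPsyngamma near 0.

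No library stood apart for all genes, but each differed in its own way. Of 3055 genes at 10 TPM or more in all libraries, 10 were over 2 times above both others in replicate 2, 5 in replicate 1 and 3 in replicate 3. Those of replicate 2 included Act87E, Ant2, CG7214 and CG34461, and those of replicate 3 were 28SrRNA-Psi:CR45860, 28SrRNA-Psi:CR41609 and Hsp70Ab. CG7214 and both 28S pseudogenes were chosen after their values were seen.

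The difference also followed gene length. Against the mean of the other libraries, the median log2 difference of the 561 genes of 4000 bases or more was 0.19 in replicate 1 and -0.24 in replicate 3. For the 251 genes under 700 bases it was -0.19 in replicate 1 and 0.15 in replicate 2. Not every long gene followed this: SERCA, RyR, Unc-89 and Zasp52 were highest in replicate 1, but the giant sarcomeric genes bt, sls and Msp300, of which the latter pair was chosen after their values were seen, were highest in replicate 2. The part of length in these levels was not tested. As a check for repeat deposits, the chi-square per gene between the counts of 2 libraries was 56.0 to 97.2. It is set against counting error alone and is raised by amplification and by counting both mates, so it is given as a description; no 2 libraries had the same counts.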

How the data were processed

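Only the 3 UAS-GFP libraries were analysed, and 3 columns of UAS-Antp samples were not used. The authors deposited counts of uniquely mapping reads on exons by strand (featureCounts, dm6, FlyBase annotation), without normalization. A table of the authors' comparison holds fold changes and p-values, and only its gene symbols were read (17581 genes, with 30 from a gene name table). In each library, 75.2% to 81.0% of the genes with 5 to 50 counts had an even count, so both mates of a pair appear to have been counted.

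TPM was computed from the deposited counts and exon lengths (Python 3.11.15, pandas 2.3.3). SDs are over 3 libraries, and no comparison was tested. The spread was estimated with edgeR 4.0.16 (filterByExpr, TMM, intercept only), with DESeq2 1.42.0 size factors as an alternative. The TPM and dispersion code was run on simulated data. The counts for TPM were drawn with the same lengths that they were then divided by, so the choice of length was not tested. On a strand, 772 pairs of genes share exon bases, and such genes held 10.5% to 11.0% of the TPM. Reads on shared bases appear to be counted for each gene, so totals and shares hold some reads more than once. The overlapping ND-MNLL and CG45089, for example, both had 34035, 31218 and 35779 counts. Biotypes and transcript lengths are from Ensembl release 115.

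Members, lists and rules were chosen with earlier results of these data known. The rule for named genes takes the markers, the 30 most abundant, the leading 5 of each class and its undetected members where they are counted, all paralogs and marker lists, and the 5 largest and 5 smallest CVs at 100 TPM or more. Not every gene it takes is printed: part of the leading members and marker genes, the undetected cuticle genes and noncoding RNAs are given as counts or sums. Others were chosen after their values were seen: the respiratory complexes and Osiris genes as lists, Antp, ect, sls, Msp300, CG7214 and both 28S pseudogenes. In all, 6 list names were not matched.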

Additional observations from a re-analysis of the deposited data

How the results depend on the processing

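No paired analysis was possible because no groups were compared. Counts per 1000000 (CPM), with no division by length, gave 51.4% for the 50 most abundant genes and 10.999% of the pool for the respiratory chain, 5.04% for the cytosolic ribosome, 16.8% for the thick filament, 6.28% for the TCA cycle, 3.16% for glycolysis and 2.30% for carriers. The log2 ratios were then 8.35 for Act88F over Act5C, 8.66 for TpnC4 over TpnC41C, 9.97 for Mlc2 over sqh and 9.60 for Mhc over zip, and that of Tm2 over Tm1 changed sign, to -0.073, since Tm1 has the longer exons. Those over Mhc, added after seeing the data, also changed sign, to -0.57 for Act88F, -0.50 for Mlc2, -2.53 for Mlc1 and -1.89 for fln. With 200 bases taken off each length, the respiratory chain held 22.2%, the cytosolic ribosome 12.8%, the thick filament 10.1%, the thin filament 9.81%, the TCA cycle 4.97%, glycolysis 2.32% and carriers 1.98%, and the log2 ratios over Mhc were 2.10 for Act88F, 0.34 for Mlc1 and 1.12 for fln. The length of the longest transcript gave 11.5% for the thin filament and log2 ratios of 0.55 for Tm2 over Tm1, 9.27 for Mlc2 over sqh and 9.49 for Mhc over zip, and over Mhc of 1.63 for Act88F, 1.18 for Mlc2, 0.69 for fln and, with a changed sign, -0.15 for Mlc1.

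Without genes that share exon bases, the 50 most abundant genes held 50.8%, the respiratory chain 20.99%, the thick filament 12.2%, the thin filament 11.6%, glycolysis 2.81% and carriers 0.825%, the last because sesB was left out. The mean number of genes holding 50% of the pool fell from 59 to 48 under this setting, and to 45.7 with CPM. With protein-coding genes only, an alternative added after seeing the data, the thick and thin filaments held 11.1% and 10.6%. The biological coefficient of variation was 0.229 without a filter on low counts, and 0.169 to 0.204 when 1 library was left out. At least 10 counts in each library moved no share or ratio by more than its SD over the libraries. Leaving out 1 library moved no share or ratio by more than its SD. A mean of 3 values cannot move further than that, so this outcome was fixed in advance and shows no robustness. Levels near the floor and of short or overlapping genes are the least certain.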
